A study of Mus musculus with 12 samples.

Results

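Methionine is the source of sulfur for cysteine in the liver, and 9 genes of this route were described here in mouse liver under dietary sulfur amino acid restriction (SAAR). They were chosen by their known function, with earlier results of these data known. Cbs and Cth belong to transsulfuration, Cdo1 and Csad to the route from cysteine to taurine, and Slc6a6 is the taurine carrier. Ethe1, Tst, Mpst and Suox handle the sulfane sulfur, sulfide and sulfite that arise from cysteine. These 9 genes are among the 36047 matched to the deposited transcripts, and all 9 passed the filter on low counts that left 14670 genes for testing. Livers came from 12 male C57Bl/6J mice aged 5 to 6 months, 3 in each of 4 groups, after 7 days of feeding and 4 h without food. By the paper's account the mice were given deuterium oxide, by injection at the start and then in their drinking water. RF.Ctrl and RF.SAAR mice ate regular-fat diets with 18% of the energy from fat, and HF.Ctrl and HF.SAAR mice ate high-fat diets with 60%. All 4 diets lacked cysteine, so the Ctrl mice too had methionine as their only dietary sulfur amino acid, and SAAR lowered methionine with glutamic acid in its place. The RF and HF diets came from different makers, so fat content and maker cannot be told apart.

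In transsulfuration, cystathionine beta-synthase and then cystathionine gamma-lyase move the sulfur of homocysteine onto serine to give cysteine. Cysteine dioxygenase oxidizes surplus cysteine to cysteine sulfinate, which cysteine sulfinate decarboxylase turns into hypotaurine, the precursor of taurine, and in liver taurine is conjugated to bile acids. Cysteine that is instead desulfurated yields persulfides and sulfide, which the mitochondrial persulfide dioxygenase, the sulfurtransferases and sulfite oxidase carry on to thiosulfate and sulfate.

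Total estimated counts were between 16203094 and 21230092 per mouse, and the lowest count of any of the 9 genes in any mouse was 482, so counting error was small beside the spread between mice. The liver label held: 7 hepatocyte marker genes summed to between 75288 and 99982 CPM, that is counts scaled to the library size after TMM scaling. All marker sums here are on this scale. TMM factors were 0.945 to 0.979 in RF.Ctrl and 1.04 to 1.11 in RF.SAAR, and the sums were not compared without them. A list of 36 pancreatic acinar genes summed to over 1000 CPM in 5 mice, from 1776 in RF.Ctrl 1, 1994 in HF.Ctrl 1 and 4406 in HF.SAAR 2 to 7657 in HF.Ctrl 2 and 19501 in HF.SAAR 3, against 43.3 to 101 in the other 7. Other marker sums also moved with SAAR without overlap. In RF the hepatocyte sum was 85881 to 99982 CPM in Ctrl and 75629 to 82386 in SAAR, and 4 red blood cell genes summed to 480 to 560 and 270 to 330 CPM, while in HF both sums overlapped. The sum of 5 cholangiocyte genes was 42.9 to 62.0 CPM in RF.Ctrl and 36.0 to 42.9 in RF.SAAR, next to each other, and 42.9 to 58.0 in HF.Ctrl and 35.2 to 38.5 in HF.SAAR. The sums for Kupffer, sinusoidal endothelial, stellate, adipocyte and skeletal muscle genes overlapped between SAAR and Ctrl at both fat levels. The part of the hepatocyte, red blood cell and cholangiocyte sums in the changes given below was not tested. In bulk tissue, fewer cells of a type and less RNA per cell cannot be told apart. Changes below are log2 fold changes from edgeR's quasi-likelihood test over all genes, with their standard error (SE) and a Benjamini-Hochberg adjusted p, and a gene is called where that p is under 0.05. Normalized CPM use the library size after TMM scaling, and TPM are the authors' length-scaled values, used here to compare levels between genes and between transcripts of a gene.

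Csad was the member whose level differed most between the groups and the only one called in any comparison. It was higher with SAAR at both fat levels and lower on high fat under both amino acid supplies, so that RF.SAAR mice had the highest level and HF.Ctrl mice the lowest. Csad lies on chromosome 15 of GRCm38, from 102176999 to 102204724 on the minus strand, and codes for the decarboxylase that makes hypotaurine. Of its annotated transcripts, one protein-coding form of 2279 bases carried 77.0% of the gene's TPM on average (63.8% to 85.4% in single mice) and 92.7% of its counts. The 235 bases before the annotated start of that form, outside every annotated exon, are shown because that form held most of the gene's estimated counts. They come from the RefSeq promoter table (GRCm38.p6, chr15:102189059-102189293, minus strand, written 5′ to 3′).

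Csad, upstream of the main start: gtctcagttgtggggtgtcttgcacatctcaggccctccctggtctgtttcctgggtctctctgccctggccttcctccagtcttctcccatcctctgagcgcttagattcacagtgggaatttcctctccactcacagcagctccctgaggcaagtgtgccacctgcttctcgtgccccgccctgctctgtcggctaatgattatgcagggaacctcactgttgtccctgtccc

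There are no capitals in this stretch because none of the letter patterns searched on both strands occurred in it. These were TGATGNAA, the C/EBP-ATF composite pattern that ATF4 can bind, TGACNNNGC, the core of the antioxidant response element, and CACGTG, the E-box. Over all 32851 promoter windows of the table, each reaching from 250 bases before to 50 bases after a start, 3.97% held the first pattern, 12.4% the second and 7.15% the third. The table had 9 windows for 5 of the members. TGATGNAA was in none of them, TGACNNNGC was in 1 of the 3 Mpst windows as TGACATGGC, 12 bases before the start, and CACGTG was in the Cbs window, 229 bases before the start. Windows for Cth, Cdo1, Tst and Slc6a6 were not analysed here. A match is a description of these letters only, and the absence of a match says nothing of the factor.

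Normalized CPM of Csad were 149, 71.8 and 139 in the RF.Ctrl mice and 341, 356 and 274 in the RF.SAAR mice. On high fat they were 84.8, 86.0 and 44.0 in HF.Ctrl and 105, 133 and 91.9 in HF.SAAR. Every SAAR mouse was above every Ctrl mouse of the same fat level, by a wide margin in RF and by a narrow one in HF, and the 3 HF.SAAR mice stayed below the highest RF.Ctrl mouse. The change was 1.43 on the log2 scale (SE 0.31, 2.70-fold) in RF.SAAR vs. RF.Ctrl with an adjusted p of 0.0532 from edgeR, just short of the threshold. It was 0.62 (SE 0.31, 1.54-fold) in HF.SAAR vs. HF.Ctrl with an adjusted edgeR p of 0.453. Averaged over RF and HF, Csad rose by 1.03 (SE 0.22, 2.04-fold) with an adjusted edgeR p of 0.0180, in 6 of 6 SAAR mice relative to the Ctrl mice of their fat level. The difference between the fat levels in the response to SAAR, the interaction, was -0.81 (SE 0.43) with an unadjusted p of 0.0873 and an adjusted edgeR p of 0.999. The RF call moved across the threshold with the processing, since the adjusted p over 24 alternatives ran from 1.34e-05, by DESeq2, to 0.186, for the most abundant transcript, and was under the threshold in 8. For the averaged change it ran from 4.39e-06 to 0.0792 over 23 alternatives and was under the threshold in 21. Without the 5 mice high in pancreatic genes the averaged change was 1.43 with an adjusted p of 0.0792, from a fit that kept 2 mice of RF.Ctrl and 3 of RF.SAAR but 1 of each HF group.

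**Figure D1:**
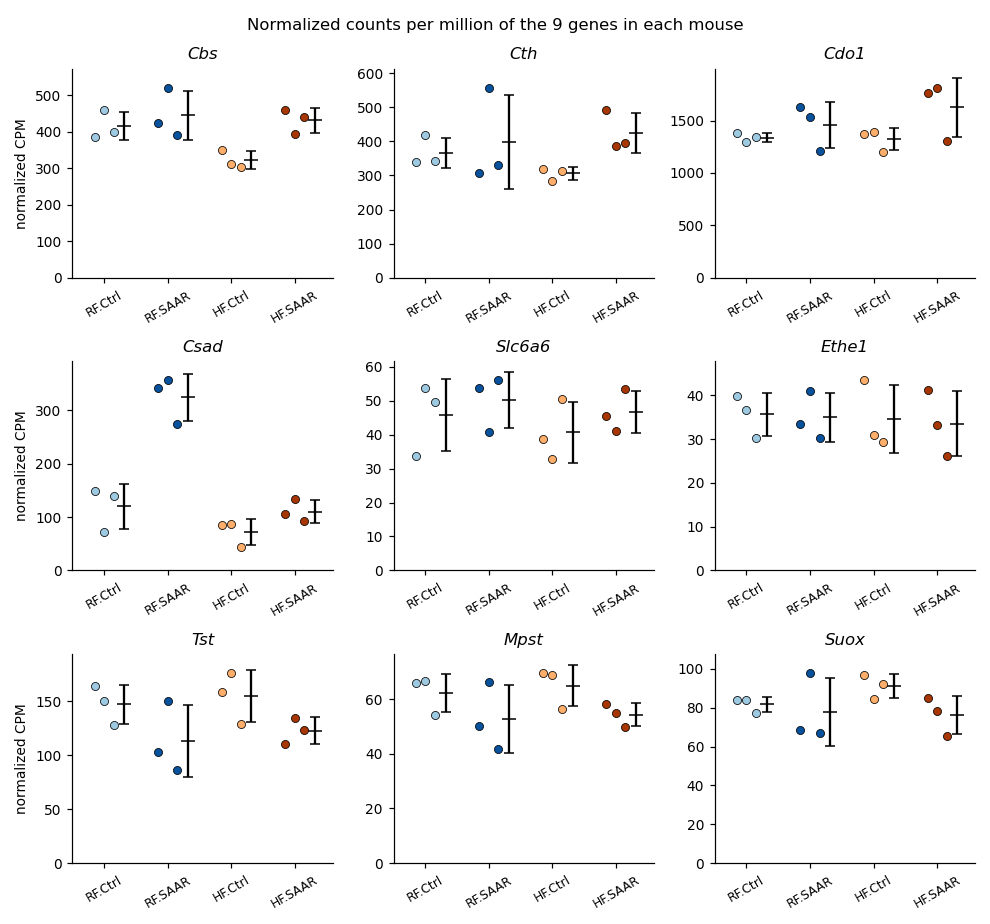
Normalized CPM (y axis, starting at 0) of the 9 genes in each mouse (points, ordered by replicate number) of the 4 groups, with the mean and SD of the 3 mice beside them. In the Csad panel the RF.SAAR mice lie between 274 and 356 and all other mice at or below 149, whereas in the Ethe1, Slc6a6 and Tst panels the groups overlap.

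These calls stand against the background of the whole table. With SAAR at regular fat 0.6% of the tested genes passed as higher and 0.886% as lower, while at high fat these shares were 1.01% and 0.961%. The count of called members was 0 of 9 at each fat level. DESeq2 called 1 member in each, Csad in RF and Cbs in HF, beside 5.25% and 5.12% of all genes to which it gave an adjusted p. At an unadjusted edgeR p under 0.05 there was 1 member of 9 in RF (Csad), against 13.6% of all genes, and 3 in HF (Cbs, Cth and Cdo1), against 12.4%. Averaged over fat, 3.22% of genes were called higher and 3.7% lower, and 1 of 9 members was called higher and 0 lower, with 6 of 9 at an unadjusted p under 0.05, against 20.3% of all genes, and 2 called by DESeq2 (Csad and Cbs), against 9.45%. The median change of the 9 members was 0.10 in RF and 0.20 in HF, beside a median of 0.00 over all genes in each comparison. All 3 SAAR mice lay above all 3 Ctrl mice for 1 of 9 members in RF (Csad), against 8.51% of all genes, and for 3 of 9 in HF (Cbs, Cth and Csad), against 8.89%. They lay below for 0 of 9 members in each, against 9.7% and 8.97% of all genes.

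**Figure D2:**
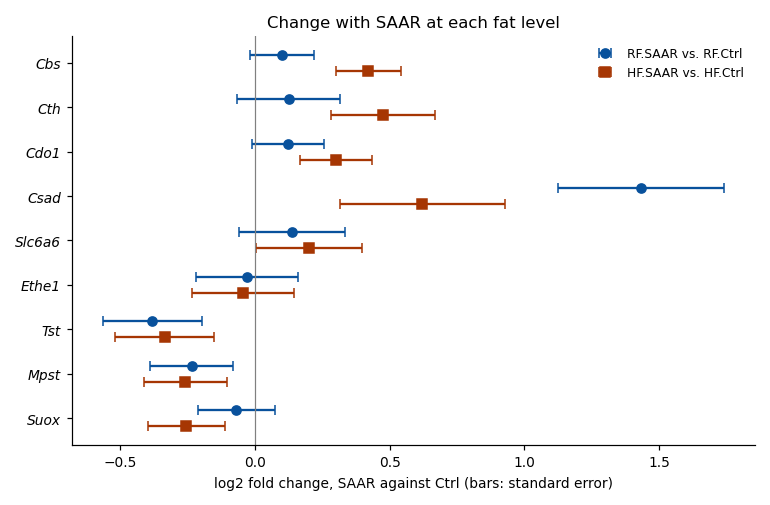
Log2 fold change with SAAR (x axis) of each gene (y axis) in RF (circles) and HF (squares), with bars of 1 standard error. Csad has the largest change in RF, 1.43, Cbs, Cth and Cdo1 lie above 0 at both fat levels, and Tst, Mpst and Suox lie below 0. Suox in RF turns positive with no TMM scaling, and Cbs and Cth in RF turn negative, at -0.029 and -0.20, without RF.SAAR 2.

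The Csad transcripts were compared next by their annotated starts. Starts were not measured, since reads were assigned by kallisto to annotated transcripts that share exons. The main form held 92.7% of the gene's counts on average, so the TPM of the upstream transcripts rest on a small part of the reads. The 2 transcripts that begin within 100 bases of the main start were at 60.2, 30.7 and 60.5 TPM in the RF.Ctrl mice and at 191, 175 and 146 TPM in the RF.SAAR mice. The 13 transcripts that begin over 10000 bases upstream were at 10.8, 10.3 and 9.30 TPM under RF.Ctrl and 15.4, 12.4 and 13.7 TPM in RF.SAAR. In TPM, which have no TMM scaling between mice, both sets were higher in every RF.SAAR mouse, but the main start much more so. Mean TPM of Cdo1 also rose, from 972 in RF.Ctrl to 1286 in RF.SAAR, while its mean normalized CPM were 1338 and 1457. How much of the upstream difference comes from the missing scaling was not tested. Within the gene's TPM, where this scaling cancels, the share of the upstream starts was 14.9%, 23.1% and 12.7% in RF.Ctrl and 6.40%, 6.18% and 7.77% in RF.SAAR. These shares did not overlap, and the exact two-sided permutation test gave p = 0.1, the smallest that 3 mice against 3 allow. The share of the main start, by contrast, overlapped, with means of 78.1% in RF.Ctrl and 83.0% in RF.SAAR and an exact permutation p of 0.6. The remaining TPM belonged to Csad transcripts in neither set, so a lower upstream share is not by itself a higher share of the main start. In HF the upstream share was 16.4%, 9.75% and 22.4% in HF.Ctrl and 12.7%, 11.0% and 13.7% in HF.SAAR. Here the groups overlapped, with an exact permutation p of 0.5. The main start's share averaged 74.3% in HF.Ctrl and 78.4% in HF.SAAR, with an exact permutation p of 0.9. The upstream exons share 278 of the 3831 exonic bases of Csad with the zinc finger gene Zfp740 on the opposite strand, and whether the libraries kept strand is not given in the sources used here, so reads there cannot be assigned to one of the genes with certainty.

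**Figure D3:**
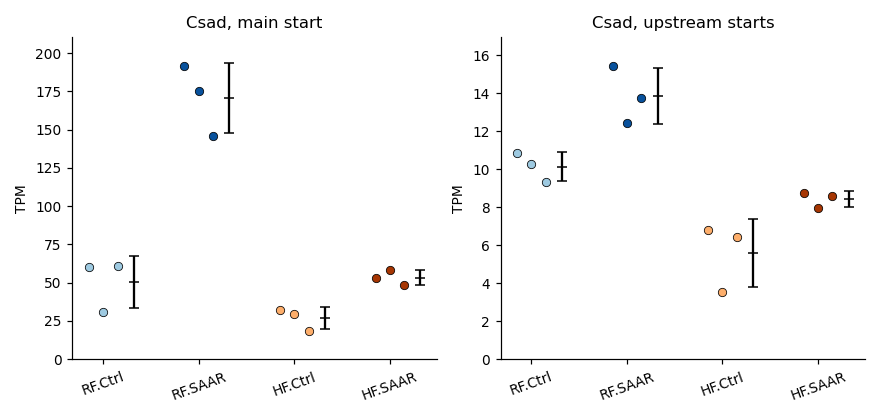
TPM (y axis, starting at 0, different in each panel) of the Csad transcripts that begin at the main start (left) and over 10000 bases upstream (right) in each mouse, with mean and SD. The main start reaches 146 to 191 TPM in RF.SAAR against at most 60.5 in the other groups, and the upstream starts stay at or below 15.4 TPM.

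Csad was also lower on high fat, without passing the threshold. Between the restricted groups the log2 change with fat was -1.56 (SE 0.31, 0.340-fold). Each of the 3 HF.SAAR mice had less Csad than any RF.SAAR mouse, with an unadjusted p of 0.000439 that became 0.273 after edgeR's adjustment over all genes. HF.SAAR vs. RF.SAAR called 0.0477% of all genes and 0 of 9 members, with Csad alone of the 9 under an unadjusted p of 0.05, against 5.59% of all genes, whereas DESeq2, which called 0.61% of genes, gave Csad an adjusted p of 1.43e-05, the lowest of 24 alternatives that reached up to 1. In HF.Ctrl vs. RF.Ctrl the Csad change was -0.75 (SE 0.31) with an adjusted edgeR p of 1, and the groups overlapped through RF.Ctrl 2 at 71.8 CPM. That comparison called 0% of genes by edgeR, with 527 genes (3.59%) at an unadjusted p under 0.05 and 34 (0.327%) called by DESeq2, and 0 of 9 members were called by either tool. By unadjusted p under 0.05 it had 2 members, Csad and Cbs. The interaction called 0.00682% of genes and 0 of 9 members, with 0 of 9 members at an unadjusted p under 0.05, against 3.15% of all genes, and 0 called by DESeq2, against 0.114%.

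Among the other genes, those whose normalized CPM ran most closely with Csad over the 12 mice were Igfn1, with a Pearson r of 0.92, Slc52a2, a riboflavin transporter, with 0.87, and Gm7609 with 0.86. All 3 were far lower than Csad, at means of 1.63, 6.10 and 2.12 CPM. The 12 mice of these correlations include the same 3 RF.SAAR mice at the top, so they describe the 4 groups as much as single mice.

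The transsulfuration genes Cbs and Cth differed with SAAR mainly on high fat, and neither was called. Cbs codes for the enzyme that commits homocysteine to cysteine synthesis (chromosome 17, 31608894 to 31637238, minus strand). Its normalized CPM were 350, 310 and 304 in HF.Ctrl and 459, 394 and 439 in HF.SAAR, with no overlap. In RF they were 386, 460 and 400 in RF.Ctrl and 423, 521 and 392 in RF.SAAR, which overlapped. The lower values were those of the HF.Ctrl mice, and the 3 SAAR mice on high fat stood at the level of both RF groups. The change with SAAR was 0.42 (SE 0.12) in HF with an adjusted edgeR p of 0.101 and 0.10 (SE 0.12) in RF with an adjusted edgeR p of 0.817. With fat in the Ctrl mice it was -0.37 (SE 0.12), with an unadjusted p of 0.00832 and an adjusted edgeR p of 1. DESeq2 called the HF change of Cbs, with an adjusted p of 0.0173, within a range of 0.0141 to 0.501 over the alternatives.

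Cth codes for the lyase that releases cysteine (chromosome 3, 157894248 to 157925077, minus strand). Its CPM were 319, 285 and 314 in HF.Ctrl and 493, 386 and 396 in HF.SAAR. In RF they were 339, 418 and 341 in RF.Ctrl and 308, 557 and 332 in RF.SAAR, where RF.SAAR 2 stood apart and the other two mice were below all RF.Ctrl mice. The HF change was 0.47 (SE 0.19) with an adjusted edgeR p of 0.318, and the RF change was 0.12 (SE 0.19) with an adjusted edgeR p of 0.872 and -0.20 when RF.SAAR 2 was left out. RF.SAAR 2 was also the RF.SAAR mouse with the highest Cbs. The interactions were 0.32 (SE 0.17) for Cbs and 0.35 (SE 0.27) for Cth, each with an adjusted edgeR p of 0.999, so a difference between the fat levels was not detectable for either gene.

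On the way from cysteine to taurine, Cdo1, the dioxygenase that opens cysteine breakdown (chromosome 18, 46713193 to 46728395, minus strand), was the most abundant of the 9 genes in every mouse. Its normalized CPM were 1382, 1292 and 1340 in the RF.Ctrl mice, 1634, 1530 and 1209 in the RF.SAAR mice, 1373, 1388 and 1199 in HF.Ctrl and 1761, 1814 and 1303 in HF.SAAR. In each SAAR group mouse 1 and mouse 2 were above all Ctrl mice and mouse 3 was not. The change was 0.12 (SE 0.13) in RF and 0.30 (SE 0.13) in HF, with adjusted edgeR p of 0.788 and 0.366. Set against Cdo1, the TPM of Csad were 7.72%, 4.54% and 7.38% of the Cdo1 TPM in RF.Ctrl and 15.5%, 16.5% and 16.3% in RF.SAAR. In HF the corresponding shares were 4.62%, 4.56% and 3.14% in HF.Ctrl and 4.49%, 5.45% and 5.24% in HF.SAAR. The RF.SAAR mice stood apart from all others in this ratio, and the HF groups overlapped.

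Slc6a6, the sodium-dependent transporter that takes taurine into cells (chromosome 6, 91684053 to 91759066, plus strand), did not follow Csad. Its CPM ranged from 33.7 to 53.7 in RF.Ctrl, 40.8 to 56.1 in RF.SAAR, 32.8 to 50.5 in HF.Ctrl and 41.1 to 53.5 in HF.SAAR. The changes of 0.14 (SE 0.20) and 0.20 (SE 0.20) had adjusted edgeR p of 0.863 and 0.763, and the RF value turned to -0.05 when the effective lengths of each mouse entered the fit. A transcript of 557 bases carried 21.4% of the TPM of Slc6a6 but 2.25% of its counts, so its TPM rest on few reads.

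For the genes of sulfane sulfur, sulfide and sulfite the changes with SAAR were below 0, none was called, and those of Ethe1 and of Suox in RF turned positive with no TMM scaling. Tst codes for rhodanese, the sulfurtransferase that makes thiocyanate from cyanide, and Mpst for the transferase that takes the sulfur of 3-mercaptopyruvate. They are neighbours on chromosome 15, Tst from 78399556 to 78405907 on the minus strand and Mpst from 78406416 to 78414013 on the plus strand, head to head with 508 bases between their first annotated bases. The main Mpst form, with 64.6% of its TPM, begins further inside the gene, at 78409982. Tst was at 164, 150 and 128 CPM under RF.Ctrl, 103, 150 and 86.2 under RF.SAAR, 159, 176 and 129 under HF.Ctrl and 110, 135 and 123 in HF.SAAR. Mpst was at 65.9, 66.8 and 54.1 CPM under RF.Ctrl, 50.3, 66.5 and 42.0 under RF.SAAR, 69.8, 68.9 and 56.4 under HF.Ctrl and 58.2, 54.9 and 50.0 in HF.SAAR. Both genes had their lowest level in RF.SAAR 3, and in RF.SAAR mouse 2 was the highest for both, so the groups overlapped.

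The change with SAAR averaged over fat was -0.36 (SE 0.13) for Tst with an unadjusted p of 0.0164 and an adjusted edgeR p of 0.132. For Mpst it was -0.25 (SE 0.11) with an unadjusted p of 0.0408 and an adjusted edgeR p of 0.222. Without RF.SAAR 2 the fit called both, at -0.49 with an adjusted p of 0.0167 for Tst and -0.35 with 0.0424 for Mpst. RF.SAAR 2 also differed from the other mice of its group in the balance of short and long genes. The median centred log2 level of 1438 genes under 800 bases minus that of 866 genes over 6000 bases was 0.205 in RF.SAAR 2 and -0.318 and -0.209 in RF.SAAR 1 and RF.SAAR 3, and it ranged from -0.334 to 0.333 over the 12 mice. Tst and Mpst, with mean effective lengths of 954 and 1128 bases, belong to neither set. Their levels still ran with this score over the 12 mice, with a Pearson r of 0.68 for Tst and 0.56 for Mpst. For the other members r lay between -0.73, for Slc6a6, and 0.35, for Cdo1. With this score as a covariate, chosen after the values were seen, the averaged change of Tst was again -0.36 with an adjusted edgeR p of 0.00694, and that of Mpst was -0.24 with 0.0878. Over all alternatives the adjusted p ran from 0.00694 to 0.578 for Tst and from 0.0424 to 0.856 for Mpst. What set the score in RF.SAAR 2 was not tested.

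Suox, the mitochondrial oxidase that turns sulfite into sulfate (chromosome 10, 128669894 to 128674073, minus strand), was at 83.9, 83.8 and 77.4 CPM under RF.Ctrl and 68.6, 98.0 and 67.0 in RF.SAAR. On high fat it was at 96.7, 84.3 and 92.1 in HF.Ctrl and 84.8, 78.4 and 65.6 in HF.SAAR. In RF the SAAR mice lay on both sides of the Ctrl mice, and in HF a single SAAR mouse reached the Ctrl range. The changes were -0.07 (SE 0.14) and -0.25 (SE 0.14), with adjusted edgeR p of 0.917 and 0.521. Ethe1, the persulfide dioxygenase whose loss causes ethylmalonic encephalopathy (chromosome 7, 24587543 to 24608925, plus strand), had the smallest changes, -0.03 (SE 0.19) in RF and -0.04 (SE 0.19) in HF. Its CPM lay between 26.2 and 43.5 in all 12 mice. Ethe1 shares 99 of its 1484 exonic bases with Zfp575 on the opposite strand.

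Per length, the 9 genes covered a wide range. Mean TPM over the 12 mice were 1119 for Cdo1, 253 for Cth, 246 for Cbs, 142 for Tst, 93.2 for Csad, 52.9 for Mpst, 37.0 for Suox, 25.6 for Ethe1 and 13.2 for Slc6a6. In every group Cdo1 came first, above Cbs and Cth without overlap, and Suox, Ethe1 and Slc6a6 came after Tst and Mpst. Cbs and Cth overlapped in every group, so their order is not resolved. Csad alone changed place: it was the fourth in RF.SAAR at 206 TPM, above Tst at 137 without overlap, the fifth in RF.Ctrl at 63.5, where it overlapped Mpst, the fifth in HF.SAAR at 67.8, above Mpst without overlap, and the seventh in HF.Ctrl at 35.4, where it overlapped Suox. Over the 12 mice the highest Csad CPM was 8.11 times the lowest, and for the other 8 genes this ratio was between 1.50 and 2.05.

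**Figure D4:**
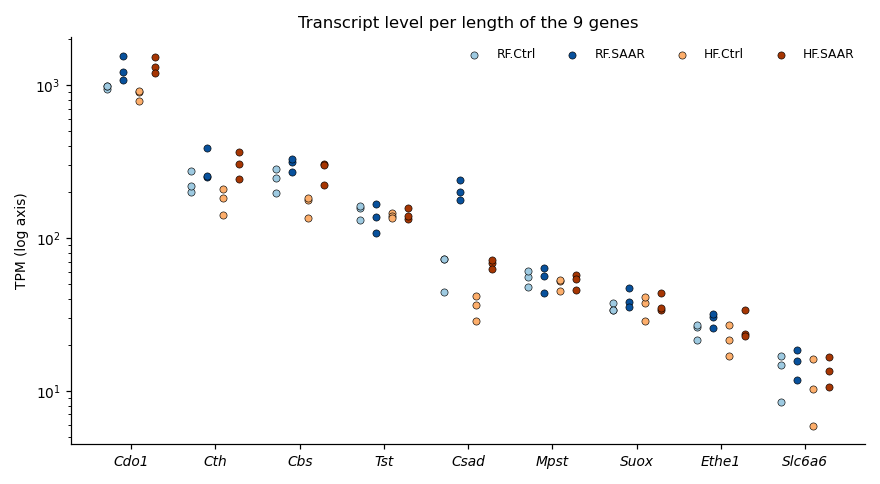
TPM (y axis, log scale) of the 9 genes in each mouse, ordered by their mean over the 12 mice and coloured by group. Cdo1 lies highest at 793 to 1556 TPM, Slc6a6 lowest, and for Csad the RF.SAAR mice, at 177 to 241 TPM, lie above all other mice, at 28.7 to 73.3, among which HF.SAAR lies within the range of RF.Ctrl.

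Most members were read from 1 main transcript. A single form carried 98.6% of the TPM of Cth, 98.6% of Tst and 95.4% of Cdo1, and Ethe1 and Suox have 1 transcript each in the files. Cbs was spread over 4 protein-coding forms with 38.1%, 23.7%, 21.5% and 13.0% of its TPM. In that order these forms have 2403, 2533, 757 and 876 bases and held 51.1%, 33.8%, 6.72% and 4.91% of its counts. The TPM of the forms of 757 and 876 bases thus rest on a small part of the reads. For Mpst the main form carried 64.6% of the TPM and the next 10.2%, and for Slc6a6 the main form carried 56.4%. For Cbs, the TPM share of the main form ranged from 31.8% to 42.1% in RF.Ctrl, 34.4% to 39.0% in RF.SAAR, 37.0% to 41.5% in HF.Ctrl and 39.2% to 40.2% in HF.SAAR. SAAR and Ctrl overlapped at both fat levels, and RF.SAAR lay just below HF.SAAR without overlap.

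Related genes of sulfur amino acid metabolism were examined in 6 lists of 57 genes, of which 55 were tested. In RF.SAAR vs. RF.Ctrl 0 of 55 were called by edgeR, against 0.6% of all genes called higher and 0.886% lower. At an unadjusted edgeR p under 0.05 there were 15, against 13.6% of all genes, and DESeq2 called 5, against 5.25%. On high fat, 6 of 55 passed, all higher with SAAR, and the median change was 0.08 beside 0.00 over all genes. Of all genes 1.01% passed there as higher and 0.961% as lower. Averaged over fat, 8 of the 55 were called higher and 2 lower, against 3.22% and 3.7% of all genes. The interaction called 0 of the 55 by edgeR or DESeq2, with 8 at an unadjusted edgeR p under 0.05, against 3.15% of all genes. The calls in HF alone thus do not show, for any single gene, a response that differs between the fat levels. Whether the 8 genes exceed the share over all genes was not tested.

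Upstream of the members, in the methionine cycle, Mat1a was called higher in HF, 1 of 15 tested, against 1.01% of all genes. It codes for the liver enzyme that makes S-adenosylmethionine. Its CPM were 1837, 1874 and 1868 in HF.Ctrl and 3637, 3593 and 3060 in HF.SAAR, far apart. The change was 0.88 (SE 0.12) with an adjusted edgeR p of 0.00149, and in RF it was 0.42 with an adjusted p of 0.107, again with no overlap. The remethylation enzymes Bhmt, Bhmt2, Mtr and Mtrr were not called, with averaged changes between -0.22 and 0.06.

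In the list of the cysteamine route, hypotaurine and taurine, 3 of 8 tested genes were called higher in HF, against 1.01% of all genes. Slc6a13, a transporter of hepatocytes that carries taurine and GABA, was at 125, 114 and 121 CPM in HF.Ctrl and 166, 207 and 201 in HF.SAAR, a change of 0.67 (SE 0.10) with an adjusted edgeR p of 0.00410. Fmo1, a flavin monooxygenase that can oxidize hypotaurine to taurine, was at 140, 132 and 147 CPM and then 186, 209 and 183, a change of 0.46 (SE 0.11) with an adjusted edgeR p of 0.0401. Vnn3, of the vanin family that frees cysteamine from pantetheine, changed by 0.53 (SE 0.11) with an adjusted edgeR p of 0.0313. None of these groups overlapped. In RF the same 3 genes were not called, at 0.24, 0.30 and 0.16, and averaged over fat they were called at 0.45, 0.38 and 0.34. Slc36a1, a proton-coupled carrier of small amino acids, was called lower averaged over fat, at -0.43 (SE 0.11, adjusted p 0.0287). Baat, which joins taurine to bile acids, was not called at -0.08, and Gadl1 was too low to test, at most 0.718 CPM.

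Among the carriers that bring cystine and cysteine into cells, 2 of 6 tested genes were called higher in HF, against 1.01% of all genes. The list median was 0.76, and both called genes code for heavy chains of heteromeric transporters. Slc3a1 was at 32.6, 24.6 and 37.5 CPM in HF.Ctrl and 57.1, 74.4 and 46.4 in HF.SAAR, a change of 0.91 (SE 0.17) with an adjusted edgeR p of 0.0174. Slc3a2 was at 35.1, 32.1 and 31.4 CPM and then 50.9, 39.0 and 60.6, a change of 0.61 (SE 0.14) with an adjusted edgeR p of 0.0413. The light chain Slc7a11, the cystine and glutamate exchanger, had a larger value of 1.17 (SE 0.58) in HF but an adjusted edgeR p of 0.440. It was hardly expressed, at means of 0.281 CPM in HF.Ctrl and 0.610 in HF.SAAR, so this value rests on few reads. Slc7a9, the light chain that pairs with Slc3a1 in kidney, was not tested and lay at 0 to 0.154 CPM.

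The remaining lists held few calls, beside 3.22% of all genes called higher and 3.7% lower averaged over fat. Of 13 genes for glutathione and coenzyme A, Gss, glutathione synthetase, was called averaged over fat at 0.33 (SE 0.07, adjusted p 0.00974), and 0 were called in either fat level alone. Of 9 genes for sulfide oxidation, sulfite and iron-sulfur, Tstd3, named for a rhodanese-like domain, was called lower averaged over fat at -0.49 (SE 0.12, adjusted p 0.0263), and Sqor, the sulfide quinone oxidoreductase that works ahead of Ethe1, was not called at -0.08. Of 4 genes for cysteine transamination edgeR called 0, with 1 at an unadjusted p under 0.05 in each fat level, and DESeq2 called 1 in HF. The shares of all genes were 13.6% in RF and 12.4% in HF by unadjusted edgeR p, and 5.12% in HF by DESeq2.

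**Figure D5:**
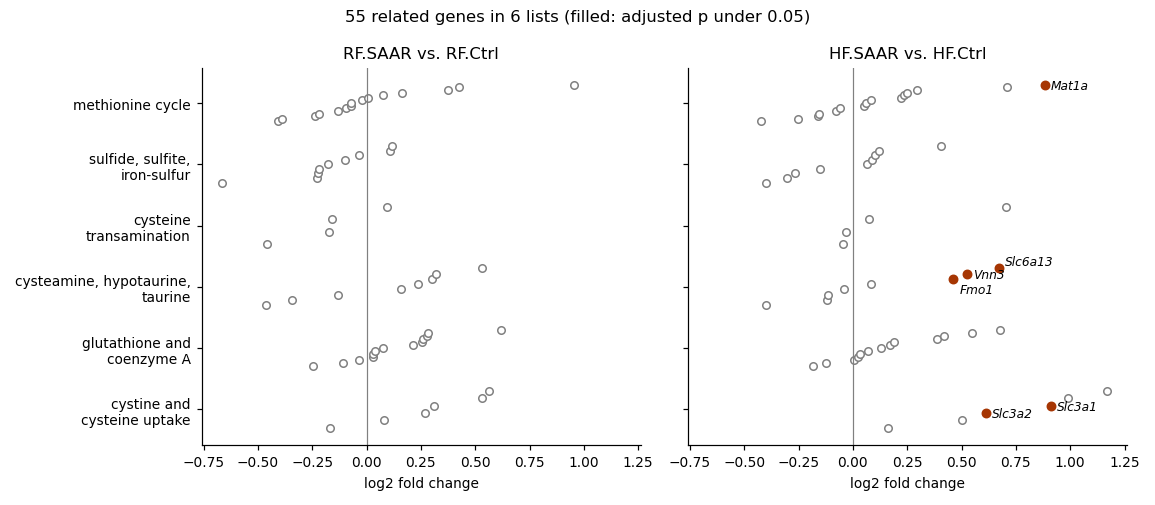
Log2 fold change with SAAR (x axis) of the 55 tested related genes by list (rows) in RF (left) and HF (right); filled points have an adjusted p under 0.05. The RF panel has no filled point, and the HF panel has 6, from Fmo1 at 0.46 to Slc3a1 at 0.91.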

How the data were processed

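Liver RNA of 12 mice was sequenced as paired reads from polyadenylated RNA. The authors removed adapters with cutadapt and ran kallisto on Ensembl mouse transcripts. Both the deposited estimated counts and the deposited TPM are per transcript, with an effective length for each mouse, and are not normalized between mice. The authors tested genes with tximport and DESeq2. Here 116816 of 118489 transcripts were matched by identifier to GENCODE M21 (GRCm38), the unmatched held 1.08% of counts, and estimated counts were summed per gene and rounded. Replicate numbers follow the order of the sample list and only name mice.

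edgeR 4.0.16 in R 4.3.3 was used with filterByExpr by group, TMM factors, a robust quasi-likelihood fit of 4 group means over all 12 mice and the F-test, with Benjamini-Hochberg adjustment over 14670 genes within each comparison. The standard error is the log2 fold change divided by the square root of F. The fit was tested on simulated data. DESeq2 1.42.0 was an alternative. The common biological coefficient of variation between mice was 0.215. Each standard error rests on the gene's own spread, drawn by the fit towards that of other genes. Estimated counts are not independent molecules.

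The 9 members, the related lists, the marker lists and the rule for names were chosen with earlier results of these data known. Named are the members, the related genes called with SAAR, and the 3 genes with the highest Pearson r to a called member on log2 CPM with a prior count of 2. Genes outside this rule (Zfp740, the remethylation enzymes, Baat, Slc7a11, Sqor and the untested genes) were named after their values were seen, as was the split of Csad transcripts by start. The short and long gene score is the difference of medians of log2(CPM + 1), centred per gene, with members left out. Alternatives were other scaling and filters, effective length offsets, the compared groups alone, the most abundant transcript, pancreatic genes left out, and each mouse left out. Sequences are from RefSeq. One gene of the related lists is counted in the list totals but not reported here by name.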

Additional observations from a re-analysis of the deposited data

How the results depend on the processing

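No paired analysis was made, because each mouse ate a single diet and the labels link no mice across groups. With 3 mice a group, edgeR's adjusted p for a single gene moves with the spread shared over genes, so a change that missed the threshold is not shown to be absent. The averaged change of Csad kept its direction in all 23 alternatives and was called in 21, including each of the 12 fits without one mouse (1.03 in the reference fit, 0.89 to 1.12 without one mouse). The exceptions were the fit without the 5 mice over 1000 CPM of pancreatic genes (1.43, adjusted p 0.0792), chosen after the data were seen, which called 0 members and leaves HF.Ctrl and HF.SAAR with 1 mouse assumed to vary like the rest, and the most abundant transcript (1.02, adjusted p 0.0669), with 0. The RF change of Csad was called in 8 of 24 alternatives, giving 1 member under RLE factors, library size alone, at least 10 counts in every mouse, effective length offsets, DESeq2, the short and long gene covariate, the pancreatic covariate (both covariates added after seeing the data) and without HF.Ctrl 3, and 0 to 1 over the fits without one mouse. In HF, library size alone called 2 members and DESeq2 1, and averaged over fat these called 4 and 2, the short and long gene covariate 3, and the fits without one mouse 1 to 3, the highest without RF.SAAR 2. In HF.SAAR vs. RF.SAAR the fit of those groups alone and DESeq2 called 1 member, Csad. Library size alone moved the median gene to 0.16 in RF and 0.17 in HF.

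The number of genes called was 218 in RF, 289 in HF and 1015 averaged. It was 425, 719 and 2449 with library size alone, 582, 630 and 1664 with the short and long gene covariate, 81, 6 and 234 without the pancreatic mice, and 53, 127 and 531 transcripts for single transcripts. DESeq2 called 606 in RF and 605 in HF, and HF.SAAR and HF.Ctrl alone gave 190. The fits without one mouse gave 87 to 244 in RF, 110 to 310 in HF, lowest without HF.Ctrl 1, and 655 to 968 averaged. The interaction called 1, and 0 with effective lengths or single transcripts, 16 by DESeq2 and 0 to 2 without one mouse. HF.Ctrl vs. RF.Ctrl called 0, then 1 with library size alone or either covariate, 3 with no filter, 2 with those groups alone, 34 by DESeq2 and 0 to 2 without one mouse. HF.SAAR vs. RF.SAAR called 7, then 4 with library size alone, 14 with no filter, 86 by DESeq2, 0 without the pancreatic mice, 2 with the pancreatic covariate, 1 for single transcripts and 1 to 7 without one mouse. Among related genes, DESeq2 called 3 of the methionine cycle, 1 for sulfide and 1 for glutathione in RF, and 1 for transamination and 1 for glutathione in HF. Library size alone called 2 of the methionine cycle, 1 of the taurine list and 1 for glutathione in RF, and 2 of the methionine cycle, 1 for transamination and 2 for glutathione in HF. By the TPM of the main transcript Tst moved ahead of Cbs and Suox ahead of Mpst.

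Signs turned only for values that were not called, and the cause was not tested. With library size alone they were Suox 0.088 and Ethe1 0.13 in RF, Ethe1 0.13 in HF and 0.13 averaged, and Mpst -0.0022 and -0.011 for fat in Ctrl and in SAAR. With effective lengths they were Slc6a6 -0.054 in RF and -0.0093 averaged. Without the pancreatic mice they were Slc6a6 -0.042, -0.17 and -0.10 and Ethe1 0.057, 0.47 and 0.26 in RF, HF and averaged, Mpst 0.024 in HF, Slc6a6 -0.12, Ethe1 0.41 and Mpst 0.22 for the interaction, Tst -0.099 and Mpst -0.089 for fat in Ctrl, and Cbs 0.036, Tst -0.047, Suox 0.11 and Ethe1 0.23 for fat in SAAR. With the short and long gene covariate they were Ethe1 0.0010 in RF, Tst -0.076 for the interaction, and Slc6a6 0.079, Tst -0.034 and Mpst -0.054 for fat in SAAR. With the pancreatic covariate they were Tst -0.069 and Ethe1 0.016 for the interaction, Tst -0.043 for fat in Ctrl, and Slc6a6 0.14, Tst -0.11, Suox 0.046, Ethe1 0.0040 and Mpst -0.0088 for fat in SAAR. With the main transcript they were Mpst 0.15 for the interaction and -0.093 for fat in Ctrl, and Cbs 0.066 for fat in SAAR.

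Without one mouse the ranges that crossed 0 were, in RF, Slc6a6 -0.043 to 0.27, Ethe1 -0.16 to 0.071, Suox -0.27 to 0.035, Cbs -0.029 to 0.19 and Cth -0.20 to 0.28. They were Ethe1 -0.22 to 0.15 in HF and -0.12 to 0.062 averaged. For the interaction they were Tst -0.12 to 0.30, Slc6a6 -0.072 to 0.25, Ethe1 -0.19 to 0.18, Mpst -0.17 to 0.17 and Suox -0.29 to 0.014. For fat in Ctrl they were Cdo1 -0.056 to 0.045, Ethe1 -0.24 to 0.059, Tst -0.034 to 0.19 and Mpst -0.027 to 0.16. For fat in SAAR they were Cth -0.066 to 0.41, Cbs -0.14 to 0.081, Suox -0.13 to 0.17, Ethe1 -0.23 to 0.090, Tst -0.047 to 0.37 and Mpst -0.11 to 0.24.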
